A study of Mus musculus with 6 samples.

Results

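The 43 genes described here belong to the BMP and TGF-beta signalling pathway and were chosen by name, as table rows annotated to 1 gene symbol on a fixed list. They fell into 5 classes, with 17 ligands, 9 receptors, 8 Smads, 5 antagonists and 4 Id genes. Bmp1, a protease gene, was listed with the ligands. Each of the 43 had 1 probe set, out of 28815 in the table, and they stood among 19920 genes that could be named from a complete probe set. The study compared the cervical spinal cord of Nkx2.9 knockout and wild-type mice at embryonic day 11.5, with 3 whole-transcript arrays in each group, lettered A, B and C, to look for genes downstream of Nkx2.9 in spinal accessory motor neurons. Nkx2.9 is a homeodomain factor of ventral progenitors. Dorsal cord and floor plate had been excluded from the tissue of both groups. The sources used here do not give the strain, the kind of allele, the sex of the embryos or whether an array held 1 embryo or a pool. The p-values thus set a group difference only against the spread between these samples, whatever its source.

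BMPs, GDFs, activins and TGF-betas are secreted dimers that bring together type I and type II receptor kinases. The type I receptor phosphorylates receptor Smads (Smad1, Smad5 and Smad9 for BMPs, Smad2 and Smad3 for TGF-beta and activin), which join Smad4 and enter the nucleus. Noggin, chordin, gremlin and follistatin bind ligands outside the cell, and the Id genes are classic direct targets of BMP Smads. In the spinal cord BMPs and Gdf7 from the roof plate pattern the dorsal progenitors, a region that the dissection left out.

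The promoters of some target genes are shown first, searched for letters through which Smads are known to bind. Those of Id1 and Smad7 are not shown. Windows of 300 bases, from 250 before to 50 after the start site, came from RefSeq with build GRCm38.p6 and were matched by symbol for 28 of the 43 genes. A pair of short words were searched on both strands: GTCT, the Smad box (AGAC on the other strand), and GGCGCC, the GC-rich word of BMP response elements, which reads the same on both strands. Capitals mark these words. The windows are those of Id2, at chr12:25096043-25096342 (minus strand), Id3, at chr4:136143572-136143871 (plus strand), Id4, at chr13:48260866-48261165 (plus strand), and the inhibitory Smad gene Smad6, at chr9:64022010-64022309 (minus strand). Bmp5, at chr9:75775115-75775414 (plus strand), is shown beside them as the gene that varied most between arrays.

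Id2: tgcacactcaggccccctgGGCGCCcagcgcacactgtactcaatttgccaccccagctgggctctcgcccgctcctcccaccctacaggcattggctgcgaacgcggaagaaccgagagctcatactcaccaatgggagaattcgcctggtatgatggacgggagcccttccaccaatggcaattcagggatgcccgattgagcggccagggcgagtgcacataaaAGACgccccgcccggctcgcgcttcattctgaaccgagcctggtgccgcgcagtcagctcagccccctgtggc
Id3: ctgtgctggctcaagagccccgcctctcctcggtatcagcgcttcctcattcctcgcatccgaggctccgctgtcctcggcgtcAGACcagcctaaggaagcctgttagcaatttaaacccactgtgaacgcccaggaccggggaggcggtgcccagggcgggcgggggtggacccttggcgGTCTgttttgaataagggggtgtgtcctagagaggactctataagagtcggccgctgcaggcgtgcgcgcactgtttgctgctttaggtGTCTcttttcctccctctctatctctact
Id4: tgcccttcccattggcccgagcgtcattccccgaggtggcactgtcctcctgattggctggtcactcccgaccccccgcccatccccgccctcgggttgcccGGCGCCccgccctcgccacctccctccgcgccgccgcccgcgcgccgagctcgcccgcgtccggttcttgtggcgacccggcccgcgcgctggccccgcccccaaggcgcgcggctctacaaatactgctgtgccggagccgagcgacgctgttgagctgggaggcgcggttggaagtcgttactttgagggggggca
Smad6: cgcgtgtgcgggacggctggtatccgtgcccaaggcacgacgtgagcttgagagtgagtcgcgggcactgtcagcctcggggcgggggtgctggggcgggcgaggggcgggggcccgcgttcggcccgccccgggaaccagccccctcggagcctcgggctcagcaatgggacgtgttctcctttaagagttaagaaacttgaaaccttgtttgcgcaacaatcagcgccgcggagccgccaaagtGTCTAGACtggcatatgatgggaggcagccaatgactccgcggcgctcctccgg
Bmp5: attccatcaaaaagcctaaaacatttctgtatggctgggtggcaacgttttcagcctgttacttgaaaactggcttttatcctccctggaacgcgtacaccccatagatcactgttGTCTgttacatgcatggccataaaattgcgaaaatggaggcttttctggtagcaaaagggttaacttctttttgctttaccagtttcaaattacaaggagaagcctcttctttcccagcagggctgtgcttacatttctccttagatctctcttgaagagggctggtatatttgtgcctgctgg

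Id2 held GGCGCC at -231 and a Smad box at -23, both counted by the first base from the start site, while Id4 held GGCGCC at -148 and no Smad box. Id3 held 3 Smad boxes and Bmp5 held 1. In Smad6 a pair of boxes lay head to head as GTCTAGAC across the start site, a word found in 0.213% of the 32851 windows of all genes. GNCGNC followed after 5 bases by GTCT, a looser form of the BMP response element that contains a Smad box, occurred in Smad6 and Bmp6 and in 0.667% of all windows. GGCGCC with the same spacing to GTCT occurred in no matched member and in 0.0731% of all windows. GGCGCC alone was found for 10 of the 28 genes (35.7%), against 11.9% of all windows, and GTCT for 23 (82.1%), against 88% of all windows. A member gene was counted if any of its windows matched, while the shares over all genes count single windows, so these shares are not alike. Windows were not matched for base composition, and a match to letters is a description only.

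All values below are log2 expression centred on the 6-array median of each probe set. They show differences between arrays and not the level of a gene, so no gene's level is set against another's, and neither detection of a transcript nor the identity of the tissue could be read from them. Several features of the arrays stand beside the results. Nkx2-9 itself was not lower in the arrays labelled knockout (0.18, SE 0.11; exact two-sided permutation p = 0.2, where 3 against 3 can give no less than 0.1), and the position of its probes relative to the deletion was not known, so the arrays are called labelled knockout. Xist stood at 4.56 and 4.91 on the arrays labelled knockout B and C and between -0.25 and 0.11 on the other 4, and the Y-linked Kdm5d at -3.08 and -3.20 on the same 2 and between -0.03 and 0.13 elsewhere. The array labelled knockout C was the highest of the 6 for 19 of 22 mesenchyme markers and 12 of 16 vessel markers, against 27.4% of all genes. It was the lowest for 11 of 17 markers of differentiated neurons, against 3912 of all 19920 named genes. Wild-type B had the lowest cell cycle median, at -0.57, where the other arrays lay between -0.10 and 0.23.

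No gene of the pathway passed an adjusted p of 0.05 between the groups in limma; 0 of 28815 probe sets did, and an unequal-variance test also gave 0. At an unadjusted p under 0.05, 1 of the 43 genes passed (2.33%), where 5.57% of all probe sets did (1605), 3.07% as higher and 2.5% as lower in knockout. The 3 arrays of one group lay entirely on one side of the other group in 4 of the 43 (9.30%), against 10.9% of complete probe sets; 3 were higher in knockout (background 6.68%) and 1 lower (4.25%). Over the 19920 named genes, with 1 probe set each, 6.06% passed that p and the groups of 11.2% did not overlap. Both shares of the 43 are near or under the background. Of the 43, 26 were higher and 17 lower, with a median difference of 0.03, where 55.1% of all genes were higher and the median was 0.0093. Leaving out labelled knockout C made the split 21 to 22, and a term for arrays with high Xist made it 20 to 23.

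Which gene passed an unadjusted p of 0.05 in limma depended on the setting, and no setting gave more than 1 of the 43. Bmp1 passed with the replicate letter as a block, where 8.86% of all probe sets passed, with array weights (5.4%) and without wild-type C (6.5%). Smad1 passed with quantile normalization (5.74%) and without labelled knockout A (5.03%). The other 4 genes passed under 1 setting each: Fst without labelled knockout B (9.96%), Inhba without labelled knockout C (4.1%), Gdf10 without wild-type A (4.5%) and Id4 with the Xist term (5.95%). None of the 43 passed with arrays centred on their medians (5.5%), with a robust variance prior (5.4%), with an unequal-variance test (3.22%) or without wild-type B (3.39%).

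**Figure D1:**
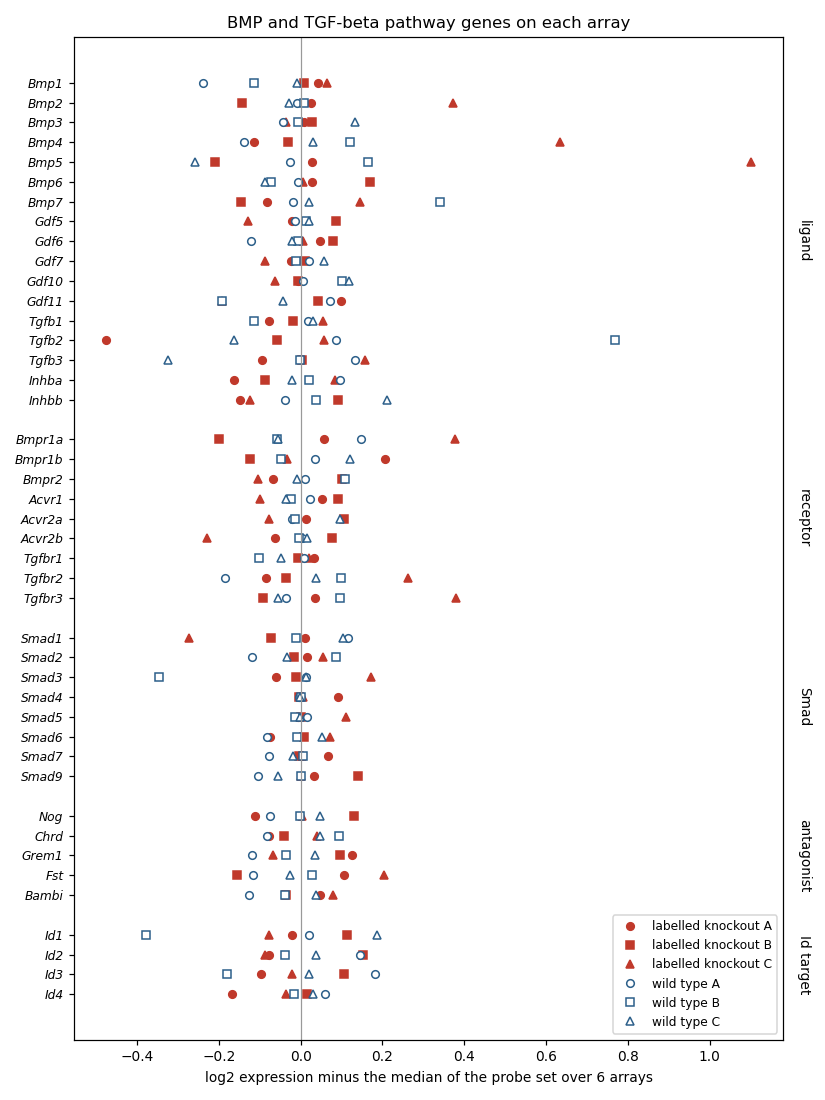
Each row is a pathway gene and each point its centred log2 value on 1 array, filled red for arrays labelled knockout and open blue for wild type, with the letter of the array given by the shape. Most points lie close to 0 and the groups overlap in 39 of the 43 rows. The widest rows are Bmp5, reaching 1.10 on labelled knockout C, and Tgfb2, from -0.47 on labelled knockout A to 0.77 on wild-type B.

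The precision of the comparison differed between genes. The 95% interval of the difference, unadjusted, lay within 1.5-fold in either direction for 40 of the 43 genes (93.0%), as it did for 94.0% of all genes. The 3 with wider intervals were Bmp4, Bmp5 and Tgfb2, all ligands. For Bmp5 the interval ran from -0.46 to 1.16 and for Tgfb2 from -1.01 to 0.23, so these arrays bound those genes loosely. For the common-mediator gene Smad4 it ran from -0.07 to 0.14.

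**Figure D2:**
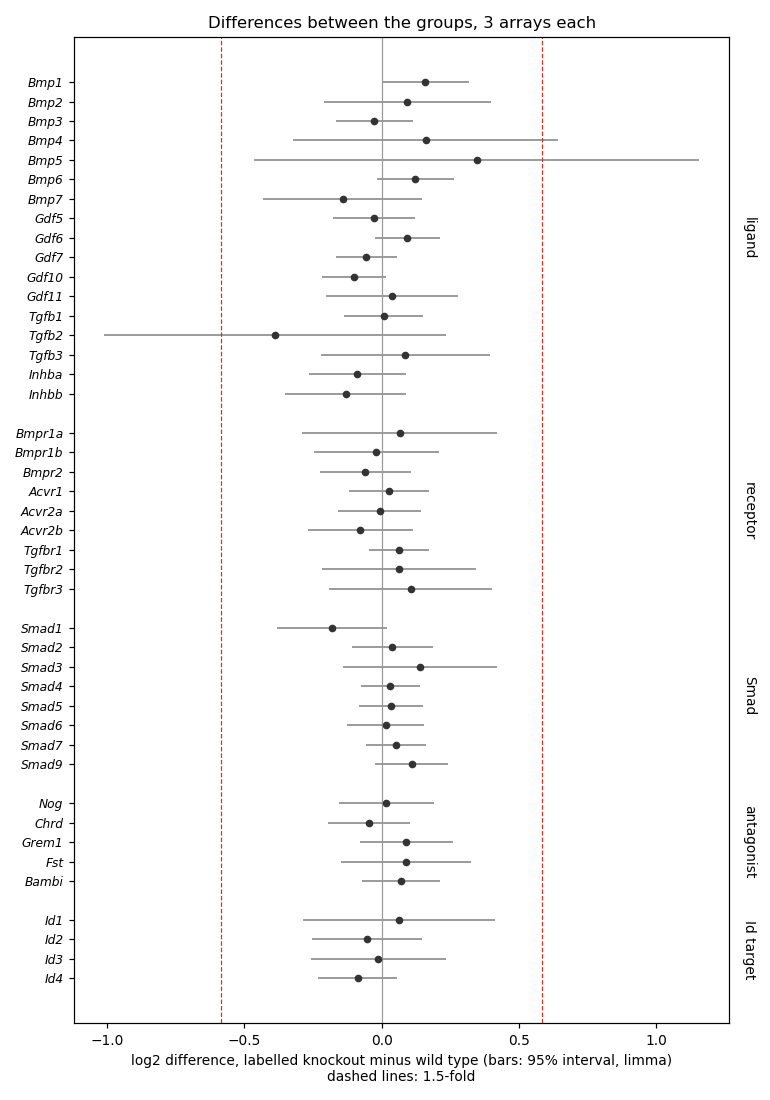
Points are log2 differences, labelled knockout minus wild type, with 95% intervals from limma over 3 arrays a group, and dashed lines mark 1.5-fold. Intervals cross a dashed line for Bmp4, Bmp5 and Tgfb2, and the interval of Bmp1, from 0.0012 to 0.32, is the one that leaves out 0.

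Bmp1 was the gene at an unadjusted p under 0.05. Despite its name it encodes a secreted metalloproteinase that cleaves procollagens and the BMP antagonist chordin. Labelled knockout arrays A to C gave 0.04, 0.0085 and 0.07, and wild-type arrays A to C gave -0.24, -0.11 and -0.0085. The groups did not overlap, though labelled knockout B and wild-type C were close to each other. The difference was 0.16 (SE 0.07, 1.12-fold; unadjusted p = 0.0488, adjusted p = 0.812 in limma). It stayed positive in each of the alternatives fitted for it, between 0.10 without wild-type A and 0.22 without wild-type C. Its unadjusted p in limma was under 0.05 with the replicate block (0.0486), with array weights (0.0461) and without wild-type C (0.0128), and above 0.05 with each of the other 5 arrays left out (0.0725 to 0.132), with centred arrays (0.05004), quantile normalization (0.0676) and the Xist term (0.164).

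The other genes of the ligand class whose groups did not overlap were Bmp6 and Gdf6, higher in the arrays labelled knockout, and Gdf10, lower. Bmp6, a ligand close to Bmp5 and Bmp7, was at 0.03, 0.17 and 0.0063 in the arrays labelled knockout and -0.0063, -0.07 and -0.09 in wild type, a difference of 0.12 (SE 0.06). Gdf6, a ligand known from joints, skull and eye, differed by 0.09 (SE 0.05), and Gdf10, also called Bmp3b, by -0.10 (SE 0.05). Leaving out 1 array brought Bmp6 to 0.07 (without labelled knockout B) and Gdf6 to 0.06 (without wild-type A), while Gdf10 lay between -0.13 and -0.08. The 4 separations, with that of Bmp1, are all of 0.16 or less over 6 arrays on the log2 scale, and Bmp6, Gdf6 and Gdf10 had unadjusted p = 0.0762, 0.104 and 0.0814 in limma. They were named after their values were seen.

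Several ligands, also named after their values were seen, varied widely between arrays, and Bmp5, Bmp4 and Bmp2 shared a high array. Bmp5, a ligand of cartilage and mesenchymal condensations, read 0.03, -0.21 and 1.10 on labelled knockout arrays A to C and -0.03, 0.16 and -0.26 on wild-type arrays A to C. Labelled knockout C stood alone, and the other 5 arrays of both groups overlapped. The SD over 6 arrays, 0.50, was at the 99.5th percentile of all complete probe sets. The difference of 0.35 (SE 0.34) turned to -0.05 without that array. Bmp4, a ligand of surface ectoderm, mesenchyme and roof plate, had the same outlying array: -0.11, -0.03 and 0.63 in the arrays labelled knockout against -0.14, 0.12 and 0.03 in wild type, with a difference of 0.16 (SE 0.20) that turned to -0.08 without labelled knockout C. Bmp2 reached 0.37 on the same array, between -0.14 and 0.02 on the other 5, and its difference of 0.09 turned to -0.05.

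Tgfb2, the TGF-beta isoform of developing neural and heart tissue, had the largest difference of the 43, -0.39 (SE 0.26, 1.31-fold lower). Its values were -0.47, -0.06 and 0.06 on labelled knockout arrays A to C and 0.09, 0.77 and -0.16 on wild-type arrays A to C, and the groups overlapped. Wild-type B was the highest array and labelled knockout A the lowest. The difference was -0.12 without wild-type B, -0.23 without labelled knockout A and -0.59 without wild-type C. A term for high Xist gave -0.71. Unadjusted p = 0.179 in limma. Wild-type B was also the highest array for Bmp7, at 0.34 against -0.15 to 0.14 on the other 5, and the Bmp7 difference of -0.14 was -0.03 without it.

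**Figure D3:**
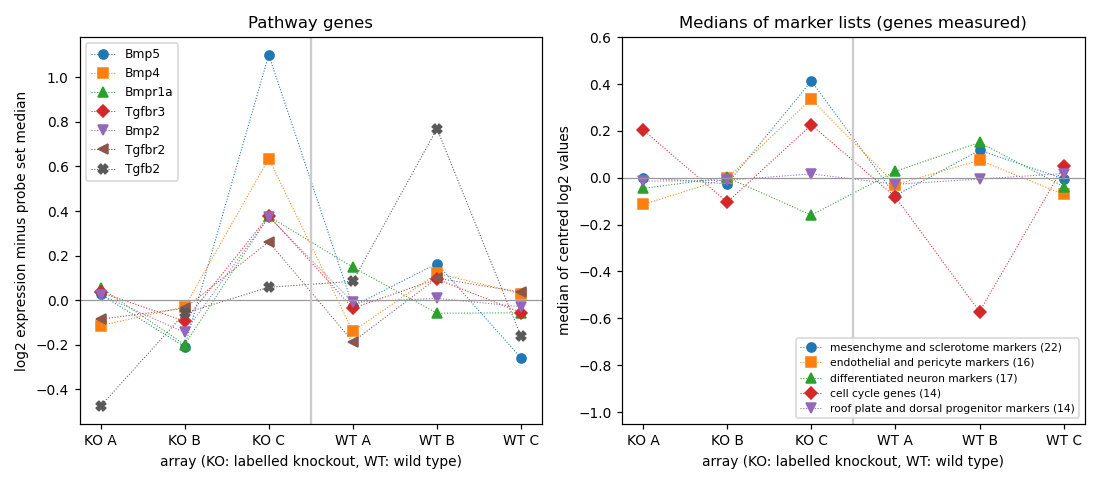
The left panel gives the centred log2 values of 7 pathway genes on each array, and the right panel the median of the genes of 5 marker lists, with dotted lines joining values of 1 gene or list for the eye. All but Tgfb2 of these genes are highest on labelled knockout C, where the mesenchyme and vessel medians also peak, at 0.41 and 0.34. Tgfb2 is highest on wild-type B, where the cell cycle median is lowest. The 7 genes were picked after their values were seen, so the shared peak follows from the choice. Of all 43 genes, 14 were highest on labelled knockout C (32.6%, against 27.4% of all genes) and 10 lowest.

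Among the remaining ligands the differences lay between -0.13 and 0.09. Bmp3 was at -0.03, Gdf5 at -0.03, Gdf11, which acts through activin receptors, at 0.04, Tgfb1 at 0.0075 and Tgfb3 at 0.09. Tgfb3 spread as widely as Bmp2 (SD over 6 arrays 0.18 for both), with wild-type C lowest at -0.32, and was at -0.04 without that array. Gdf7, the roof plate ligand needed for the most dorsal interneurons, was at -0.05 (SE 0.05), with all 6 arrays between -0.09 and 0.06. The activin subunit genes Inhba and Inhbb were at -0.09 and -0.13, and Inhba at -0.16 without labelled knockout C (unadjusted p = 0.0374 in limma). The ligand class had 9 genes higher and 8 lower, with a median difference of 0.0075. The 9 include Bmp1, which encodes a protease and not a ligand, and the median counts it too.

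The 9 receptors had differences between -0.08 and 0.11, and 0 of them passed an unadjusted p of 0.05 in limma. By lowest p, the TGF-beta type I receptor Tgfbr1 was at 0.03, -0.0075 and 0.02 in the arrays labelled knockout and 0.0075, -0.10 and -0.05 in wild type, a difference of 0.06 (SE 0.05). The activin type II receptor Acvr2b, at -0.06, 0.08 and -0.23 against 0.0035, -0.0035 and 0.01, differed by -0.08 (SE 0.08). Labelled knockout C was the lowest array for Acvr2b, and without it the difference was 0.0012. Of the 9 receptors 3 were highest on that array and 4 lowest, and of all 43 genes 14 were highest on it (32.6%) and 10 lowest. Over all 19920 named genes, 27.4% were highest on that array and 3912 genes lowest. The 3 high receptors were the BMP type I receptor Bmpr1a (0.38), the TGF-beta type II receptor Tgfbr2 (0.26) and the co-receptor betaglycan, Tgfbr3 (0.38), and the 4 low ones Acvr2b, Bmpr2, Acvr1 and Acvr2a. The differences of Bmpr1a, Tgfbr2 and Tgfbr3, at 0.07, 0.06 and 0.11, turned to -0.08, -0.04 and -0.03 without it. The activin type II receptor Acvr2a (-0.0069), the BMP type II receptor Bmpr2 (-0.06), the type I receptor Acvr1 (0.03) and the other BMP type I receptor Bmpr1b (-0.02) completed the class.

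**Figure D4:**
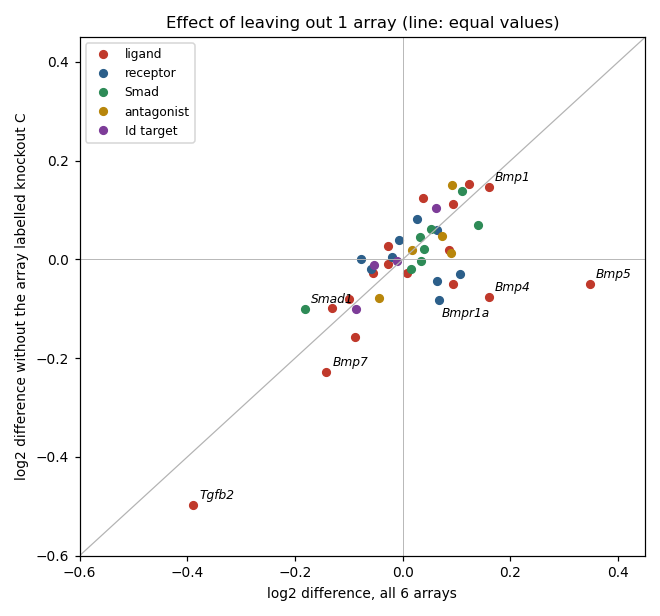
Each point is a pathway gene, with its log2 difference over all 6 arrays on the horizontal axis and without the array labelled knockout C on the vertical axis, coloured by class; the line marks equal values. Bmp5 and Bmp4 drop from 0.35 and 0.16 to -0.05 and -0.08, while Tgfb2 stays the lowest point in both.

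Beside these array values stood those of the marker lists. The mesenchyme and sclerotome median over 22 genes was 0.00067, -0.03 and 0.41 on labelled knockout arrays A to C and -0.08, 0.12 and -0.0040 on wild-type arrays A to C. On labelled knockout C, with genes chosen after their values were seen, the mesenchyme transcription factor Prrx1 was at 1.70 and the receptor Pdgfra at 1.74, and the endothelial cadherin Cdh5 at 1.37. Summed levels and absence of a marker could not be read from centred values, and the part of mesenchyme or vessels in the values of Bmp2, Bmp4, Bmp5, Bmpr1a, Tgfbr2 and Tgfbr3 was not tested. More cells of a type and more RNA per cell cannot be told apart in this tissue. Among 14 measured roof plate and dorsal progenitor markers 8 had positive and 6 negative differences, and 0 passed an unadjusted p of 0.05. The array medians of this list lay between -0.03 and 0.02, but its single markers varied widely, with differences from -0.42 to 0.28. Their median SD over 6 arrays was 0.23, against 0.09 for all genes. The unadjusted interval of the difference lay within 1.5-fold for 7 of the 14 (50%), against 94.0% of all genes. Flat medians thus do not show that these markers were even across arrays. Floor plate markers, from the other region left out of the tissue, had 8 of 10 positive differences (median 0.16), and 4 of the 10 (40%) were higher at an unadjusted p under 0.05 in limma, where 6.06% of all genes passed in either direction. These were Foxa1, Foxa2, Spon1 and Ferd3l, at 0.18 to 0.24, and 3 of the 10 passed without wild-type B and 1 with the Xist term. Of 17 differentiated neuron markers 14 had negative differences (median -0.12), with 2 lower and 1 higher at that p. With 1 array left out the neuron median lay between -0.16 and -0.06. Of the 17, 5 passed without labelled knockout B, where 9.96% of all probe sets did. None passed without labelled knockout C (4.1%) or wild-type A (4.5%). All 14 cell cycle genes had positive differences (median 0.31, and 0.12 without wild-type B), as did all 7 erythroid markers (median 0.30, and 0.04 without wild-type B), with 0 of either list at that p. Without wild-type C the medians were 0.42 and 0.59. There 6 of the 14 and 6 of the 7 passed that p, where 6.5% of all probe sets did. Without labelled knockout B 4 of the 14 cell cycle genes and 0 erythroid markers passed, where 9.96% of all probe sets did. The part of these lists in the differences of the pathway genes was not tested. Zic5, a dorsal marker, had a further probe set, at 0.21 with unadjusted p = 0.00787 in limma, where the one used was at 0.04. The dorsal homeobox gene Msx3, also picked after its values were seen, ranged widely, at -1.61 on labelled knockout C and -1.06 on wild-type B against 0.63 on wild-type C.

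Of the 8 Smads 7 were higher and 1 lower, with a median of 0.04, and 0 passed an unadjusted p of 0.05. Smad1, a receptor Smad of the BMP branch, was at 0.01, -0.07 and -0.27 in the arrays labelled knockout and 0.12, -0.01 and 0.10 in wild type. Labelled knockout A lay inside the wild-type range, and B and C below it. The difference was -0.18 (SE 0.08), with unadjusted p = 0.0686 in limma. Leaving out labelled knockout C gave -0.10. The unadjusted p in limma was 0.0285 without labelled knockout A and 0.0439 with quantile normalization. A term for high Xist gave -0.06, with unadjusted p = 0.595 in limma. Smad9, of the same branch, was at 0.03, 0.14 and -0.00018 against -0.10, 0.00018 and -0.06, a difference of 0.11 (SE 0.06), the opposite sign, and Smad5, also of that branch, at 0.03 (SE 0.05). Within the BMP branch the receptor Smads thus had no common direction. In the TGF-beta branch Smad2 was at 0.04 and Smad3 at 0.14 (SE 0.12), where wild-type B, at -0.35, lay apart from the other 5 arrays (-0.06 to 0.17) and the difference without it was 0.02. Smad4 was at 0.03, and the inhibitory Smad6 and Smad7 at 0.01 and 0.05.

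The 5 antagonists had differences between -0.04 and 0.09, and 0 passed. Gremlin, Grem1, a BMP antagonist of limb and kidney, was at 0.13, 0.10 and -0.07 in the arrays labelled knockout and -0.12, -0.04 and 0.04 in wild type, a difference of 0.09 (SE 0.07). Bambi, a receptor-like protein without a kinase that dampens the pathway, was at 0.05, -0.04 and 0.08 against -0.13, -0.04 and 0.04, a difference of 0.07 (SE 0.06). Noggin was at 0.02, chordin at -0.04 and follistatin, an activin antagonist, at 0.09. Follistatin was at 0.19 without labelled knockout B (unadjusted p = 0.0299 in limma) and 0.01 without labelled knockout C.

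The Id genes encode helix-loop-helix proteins without a DNA-binding region that hold back neurogenic factors. Id4 was at -0.17, 0.02 and -0.03 in the arrays labelled knockout and 0.06, -0.02 and 0.03 in wild type, a difference of -0.09 (SE 0.06). Id2 was at -0.08, 0.15 and -0.09 against 0.15, -0.04 and 0.04, a difference of -0.05 (SE 0.08). Id3 and Id1 are given on every array to complete the class. Id3, with its 3 Smad boxes, was at -0.10, 0.11 and -0.02 against 0.18, -0.18 and 0.02, a difference of -0.01 (SE 0.10), and Id1 at -0.02, 0.11 and -0.08 against 0.02, -0.38 and 0.19, a difference of 0.06 (SE 0.14). The groups overlapped in all 4, and 0 passed an unadjusted p of 0.05. Labelled knockout A was the lowest array for Id4, and the difference without it was -0.03 (unadjusted p = 0.523 in limma). The Xist term, which compares that array alone with the wild type, gave -0.19 (unadjusted p = 0.0266 in limma). All 4 were above their own medians on labelled knockout B, wild-type A and wild-type C and below them on the other 3 arrays, so the Id genes shared their sign on every array, and both groups held arrays of either sign. Centring itself puts 3 arrays above and 3 below for each gene. The shared sign was named after the values were seen, and it was not compared with other genes. The class median reached 0.11 on labelled knockout B and 0.10 on wild-type A, and was lowest on wild-type B, at -0.11.

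**Figure D5:**
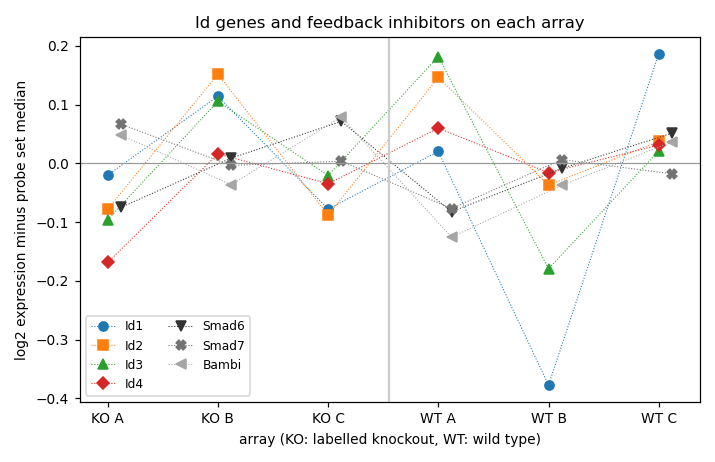
Centred log2 values of the 4 Id genes (colours) and of the feedback inhibitor genes Smad6, Smad7 and Bambi (greys, shifted slightly to the right) on each array, with dotted lines for the eye. Id1 is lowest on wild-type B, at -0.38, and Smad6, Smad7 and Bambi stay between -0.13 and 0.08.

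Further genes of the pathway, in 5 lists, were set beside the 43. Of 81 measured genes, 3 were higher and 4 lower at an unadjusted p under 0.05 (8.64%, against 6.06% of all genes with 1 probe set each), and 0 passed after adjustment over all probe sets in limma. All 7 are enzymes, secreted modulators or targets. The count moved with 1 array left out, given here with the share of all probe sets. It was 2 without labelled knockout A (5.03%), labelled knockout C (4.1%) or wild-type B (3.39%). Without wild-type A it was 3 (4.5%), without wild-type C 7 (6.5%) and without labelled knockout B 11 (9.96%). The matrix gene Ccn2, a TGF-beta target also called CTGF, was at 0.05, 0.05 and 0.11 in the arrays labelled knockout and -0.05, -0.22 and -0.09 in wild type, a difference of 0.19 (SE 0.06; unadjusted p = 0.0165 in limma). The kinase gene Map3k7, which encodes TAK1 of the Smad-independent branch, was at 0.14 (SE 0.05). The ubiquitin ligases that mark Smads and receptors for degradation differed in sign, with Smurf2 at 0.16 (SE 0.06), Smurf1 at -0.15 (SE 0.06) and Nedd4l at -0.37 (SE 0.14). A further Smurf2 probe set was at -0.04 (SE 0.06). The secreted BMP antagonist Sostdc1 was at -0.21 (SE 0.08) and the secreted von Willebrand factor C domain gene Vwc2l at -0.33 (SE 0.12). Of the other ligands 11 of 14 were higher and 3 lower, with Bmp8b of lowest p at -0.10 (SE 0.06). Of the other receptors 4 of 9 were higher and 5 lower, with the type I receptor Acvr1c at 0.10 (SE 0.06), and neither list had a gene at an unadjusted p under 0.05.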

How the data were processed

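RNA from a micro column kit went through whole-transcriptome amplification and biotin labelling before hybridization, per the labels' protocols. RMA gave the authors' deposited log2 values, per the submitters' processing notes; its settings are not known, and the log base was taken as 2. The median of every complete row over the 6 arrays was 0 within 1e-06, so expression levels and signal over background cannot be seen; 24 of the 28815 rows lacked a value on wild-type C, none of them a row of the 43 genes.

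Gene symbols came from the platform annotation, using 21780 rows with 1 symbol; for genes with several rows, the row with the most accessions was used. Group differences used limma 3.58.1 in R 4.3.3 (lmFit and eBayes, genotype as the only term) over the whole table, with Benjamini-Hochberg adjustment and a threshold of 0.05. SEs are those of limma. The script was tested on simulated data. Figures used matplotlib 3.10.9. Promoters were from RefSeq (GRCm38.p6).

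The genes and lists were chosen with earlier results of these data known. Values on every array are given for members at an unadjusted p under 0.05, or whose groups do not overlap with a difference of at least 0.2, and otherwise for the 2 of lowest p in a class; from each further list, up to 4 genes at an unadjusted p under 0.05 or else the 1 of lowest p. Id1 and Id3 complete their class; other genes with array values outside this rule were chosen after their values were seen. Groups of 3 arrays are too small for a test of outlying arrays.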

Additional observations from a re-analysis of the deposited data

How the results depend on the processing

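With each alternative that keeps all 6 arrays, 0 probe sets passed adjustment; leaving out arrays gave 0 to 5, the 5 without labelled knockout A, where Xist, Kdm5d, Eif2s3y, Uty and an unnamed probe set passed; testing 1 probe set per gene gave 0. Counts at an unadjusted p under 0.05 were 2552 with the letter as a replicate block, 928 with the unequal-variance test and 977 to 2871 with arrays left out (lowest without wild-type B, highest without labelled knockout B). Of the 43 genes, 1 passed with the block, Bmp1; 0 passed with centred arrays, 0 with a robust prior, 0 with the unequal-variance test and 0 to 1 with arrays left out. The cause of these moves was not tested. The letters were not treated as pairs, since no label says that they pair the arrays. Same-letter deviations correlated at 0.165, 0.216 and 0.0159 for A, B and C, and other-letter deviations at -0.187 to 0.0436. The A and B arrays thus correlated most with their own letter, while labelled knockout C correlated more with wild-type A (0.0284). What the letters share was not tested. No member had several probe sets, so the mean over probe sets was not run.

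The ligand median was -0.030 with the Xist term and -0.028 to 0.028 with arrays left out, and the receptor median -0.0025 with quantile normalization and -0.020 to 0.050 with arrays left out. The Smad, antagonist and Id medians moved by less than the spread between arrays in each alternative. For the Id class that spread was wide, at 0.11, so this says little. The Id median of -0.033 went from -0.12 with the Xist term to 0.035 without wild-type A, and so changed sign. Of the 43 differences 22 kept their sign throughout and 21 changed it when an array was left out, 13 of them without labelled knockout C. Their ranges were -0.051 to 0.21 for Bmp2, -0.063 to 0.025 for Bmp3, -0.076 to 0.30 for Bmp4, -0.050 to 0.60 for Bmp5, -0.081 to 0.026 for Gdf5, -0.031 to 0.13 for Gdf11, -0.039 to 0.039 for Tgfb1, -0.043 to 0.19 for Tgfb3, -0.082 to 0.21 for Bmpr1a, -0.11 to 0.050 for Bmpr1b, -0.012 to 0.083 for Acvr1, -0.053 to 0.038 for Acvr2a, -0.15 to 0.0012 for Acvr2b, -0.044 to 0.13 for Tgfbr2, -0.030 to 0.21 for Tgfbr3, -0.0087 to 0.094 for Smad2, -0.0033 to 0.055 for Smad5, -0.020 to 0.053 for Smad6, -0.044 to 0.076 for Nog, -0.098 to 0.18 for Id1 and -0.11 to 0.075 for Id3. With the Xist term Bmp4 was at -0.12, Tgfb1 at -0.056, Tgfb3 at -0.030, Bmpr1b at 0.17, Tgfbr2 at -0.068, Smad5 at -0.0072, Smad6 at -0.062 and Nog at -0.10. With quantile normalization Tgfb1 was at -0.0039 and Bmpr1a at -0.0093, and with array weights Tgfb1 was at -0.0018 and Acvr2a at 0.015. The Xist term reads the difference from labelled knockout A against wild type and assumes that array to vary like the others. The number of arrays limits the precision.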
